A study of Mus musculus with 6 samples.

Results

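The Notch pathway was examined in adult neurospheres of Ts1Cje mice and their disomic littermates through 10 of its genes: the receptors Notch1, Notch2 and Notch3, the ligands Dll1, Dll3 and Jag1, the glycosyltransferase Lfng, and the target genes Hes1, Hes5 and Hey1. Every probe set that the platform annotation pairs with one of these symbols alone was taken, which gave 17 of the 45037 probe sets of the array, for 10 of the 18193 genes that have such a probe set. All 10 genes had at least 1 probe set with a mean log2 intensity above 5, the level taken as expressed, and 12 of the 17 probe sets met it. The 5 others, for Notch2, Notch3, Lfng and Jag1, lay between 2.23 and 2.74 on average. RNA came from neurospheres, floating colonies of neural stem cells and progenitors of the adult subventricular zone, that grew for 7 days from female mice aged 84 days, in 2 groups of 3 arrays. The Ts1Cje mice, on a C57BL/6 background, carry an extra copy of distal chromosome 16 from the Sod1 gene to the telomere, and the disomic C57BL/6 littermates carry no extra copy. The Sod1 copy of the segment is not functional, and the segment is inherited and so not limited to a cell type. The extra segment is translocated onto the distal end of chromosome 12, where the sources used here also cite a report of a deletion. The sources used here call the arrays biological replicates, from 3 pairs of littermates, but do not say whether a culture came from 1 mouse or from pooled mice, so the p-values measure the spread between cultures. The arrays correlated at 0.991 to 0.997 with each other over all probe sets. None of the 10 members lies in the trisomic segment or on chromosome 12. Hes1 is on chromosome 16, but on the disomic side of Sod1.

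Notch receptors are cleaved when a ligand of the Delta or Jagged families on a neighbouring cell binds them, and the freed intracellular domain joins the DNA-binding protein Rbpj in the nucleus. The complex turns on genes of the Hes and Hey families, which encode transcriptional repressors that hold back neuronal differentiation. In the adult subventricular zone the pathway is known for keeping neural stem cells undifferentiated. Fringe proteins such as Lfng add sugars to the receptors and shift their response between Delta and Jagged ligands.

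Promoter sequence from RefSeq (build GRCm38.p6) was at hand for 8 of the 10 genes, and its 250 bases before the transcription start were searched on both strands for GTGGGAA, a core sequence that Rbpj binds. Hes1 and Hey1 had no such sequence and were not searched, so whether they carry the motif is not known here. The motif was present for 2 of the 8 genes searched, Hes5 and Lfng, and in 5.42% of the 32851 promoters of the table. Hes5 holds it at 2 places, which 0.161% of all promoters do. These 2 promoters are shown because they carry the motif and because Hes5 has the largest difference between the genotypes among the members. Capitals mark the motif, read as TTCCCAC where it lies on the other strand, and each sequence runs 5′ to 3′ on the strand of its gene, which is the plus strand for both.
Hes5, chr4:154960673-154960922: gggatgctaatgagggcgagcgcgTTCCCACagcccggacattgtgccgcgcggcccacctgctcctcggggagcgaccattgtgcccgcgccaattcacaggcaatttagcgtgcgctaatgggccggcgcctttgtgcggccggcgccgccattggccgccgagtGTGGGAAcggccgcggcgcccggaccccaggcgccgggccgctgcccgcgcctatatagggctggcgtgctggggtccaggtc
Lfng, chr5:140607091-140607340: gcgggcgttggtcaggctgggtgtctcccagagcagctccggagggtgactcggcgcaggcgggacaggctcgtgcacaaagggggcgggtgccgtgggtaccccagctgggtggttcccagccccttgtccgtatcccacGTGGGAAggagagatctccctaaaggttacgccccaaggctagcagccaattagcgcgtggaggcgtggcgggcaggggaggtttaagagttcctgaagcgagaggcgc
In Hes5 the motif begins 226 and 83 bases before the start, and in Lfng 109 bases before it. The Hes5 window lies inside the RefSeq gene record of Hes5, which begins upstream of it. A match describes these letters alone, and no binding was measured.

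Hes5, Notch3, Lfng and Dll1 had a higher mean signal in the Ts1Cje neurospheres than in the disomic ones, without passing the test. For Lfng and Dll1 the genotypes overlapped. The other Notch receptors, Dll3, Jag1, Hes1 and Hey1 had means closer to those of the disomic neurospheres. The difference M was taken as the Ts1Cje mean minus the disomic mean on the log2 scale. A moderated t from limma that lay past 4 in either direction was the threshold, chosen after the methods. Of the 12 expressed member probe sets, 0 passed this threshold, against 1.78% of all 16371 expressed probe sets. No member passed an adjusted p of 0.05 in limma either, where 0.00611% of expressed probe sets and 0.00222% of all probe sets did, and every member had an adjusted p of 1.0. Before adjustment, 1 of the 12 had a p under 0.05 in limma, against 6.18% of expressed probe sets in either direction. It was higher in Ts1Cje, as were 3.3% of expressed probe sets at that level. On 2 of the 12, every Ts1Cje value exceeded every disomic one, where 5.53% of expressed probe sets showed this, and on 0 every Ts1Cje value was the lower, where 5.21% did. The median M of the 12 was 0.03 and 6 of them were above 0, beside a median of 0.01 and 51.6% above 0 for all expressed probe sets. In bulk RNA of this kind, a difference in the number of cells of a type cannot be told apart from a difference in RNA per cell.

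**Figure D1:**
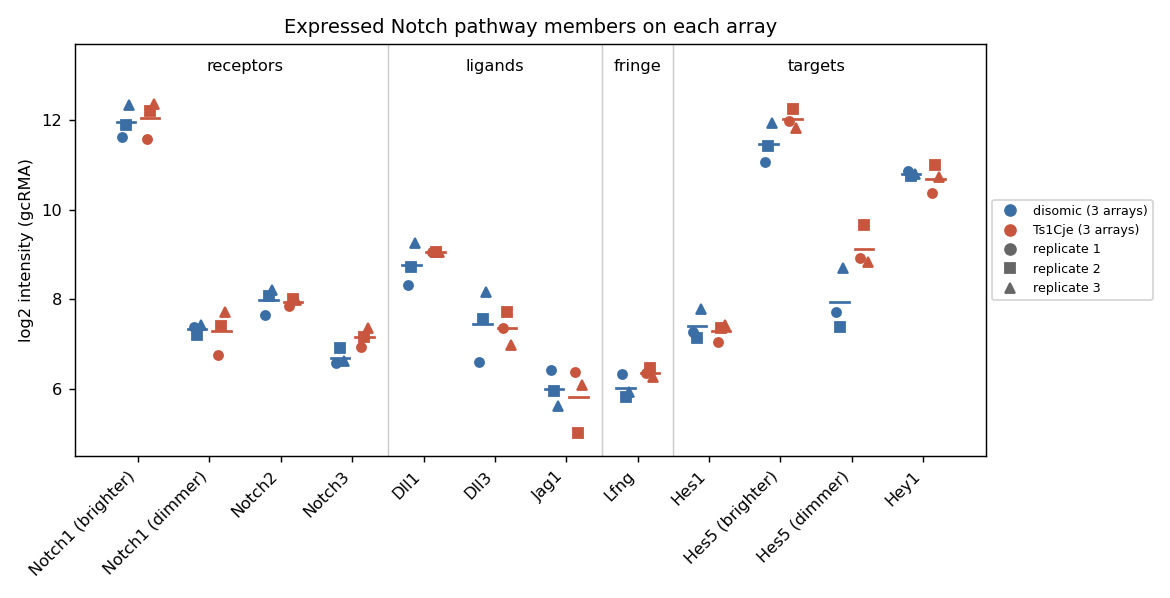
Log2 intensity of the 12 expressed member probe sets on each of the 6 arrays, with symbols for the replicate number and a line at the mean of the 3 arrays of a genotype. The Ts1Cje arrays lie above all disomic arrays for Notch3 and for the dimmer probe set of Hes5, and the genotypes overlap on the 10 others.

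**Figure D2:**
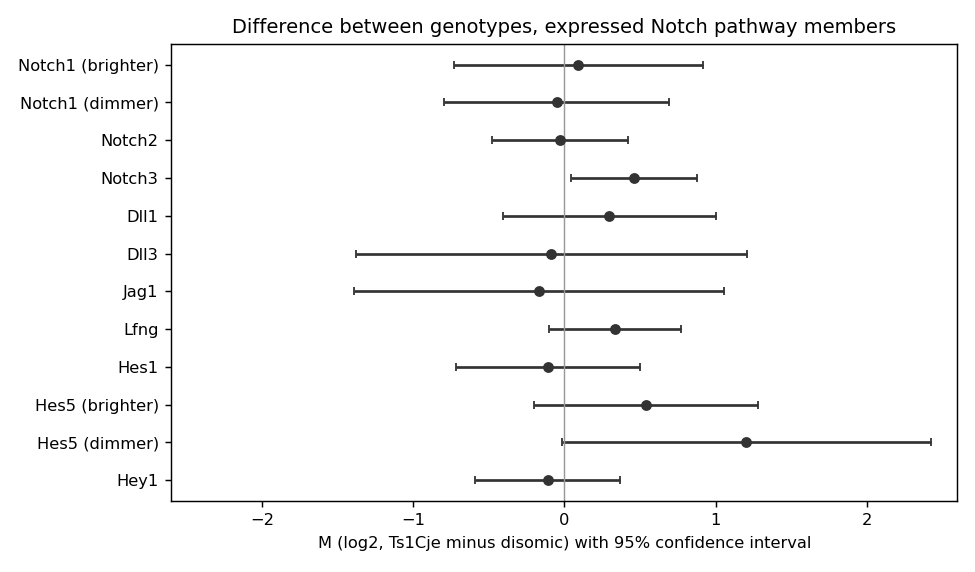
M (log2 intensity, Ts1Cje minus disomic) with its 95% confidence interval from limma for the 12 expressed member probe sets. The interval of Notch3, from 0.05 to 0.88, is the only one of the 12 that leaves out 0.

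Among the receptors, Notch3 had the largest difference. Notch3, a receptor best known from vascular mural cells and also made by neural stem cells, gave log2 intensities of 6.57, 6.90 and 6.62 on the disomic arrays and 6.94, 7.17 and 7.36 on the Ts1Cje arrays. The genotypes did not overlap, but the lowest Ts1Cje array, at 6.94, was almost level with the highest disomic one, at 6.90. Disomic neurospheres averaged 6.69 ± 0.18 and Ts1Cje neurospheres 7.16 ± 0.21 (SD, n = 3 each), so that M was 0.46, a fold change of 1.38 (95% confidence interval 1.03 to 1.84). Its moderated t was 2.99, with an unadjusted p of 0.0365 and an adjusted p of 1.0 in limma. The unadjusted p was 0.0904 to 0.107 in limma when disomic replicate 1 or 3, or Ts1Cje replicate 2 or 3, was left out, and 0.0502 with array weights. It was 0.0251 without Ts1Cje replicate 1, 0.0271 without disomic replicate 2 and 0.0359 with cyclic loess in limma. With a prior that follows intensity it was 0.0316, and in a fit on expressed probe sets 0.0272. An M of this size or larger was found for 3.84% of expressed probe sets. The probes of this set, marked _s_at, match more than 1 transcript by the maker's naming. The other probe set of Notch3 was dim, with a value of 2.56 on 5 arrays and 3.64 on Ts1Cje replicate 2.

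Notch1, the receptor most studied in neural stem cells, gave 11.62, 11.89 and 12.34 on the disomic and 11.58, 12.20 and 12.36 on the Ts1Cje arrays by its brighter probe set. The ranges of the genotypes were almost the same, and M was 0.09 (95% confidence interval -0.73 to 0.92). The dimmer probe set of Notch1 gave 7.39, 7.19 and 7.43 on the disomic and 6.76, 7.39 and 7.71 on the Ts1Cje arrays. Its M was -0.05 (95% confidence interval -0.80 to 0.69), with Ts1Cje arrays both at the top and at the bottom of the range. Notch2, a receptor linked to the quiescence of adult neural stem cells, gave 7.65, 8.07 and 8.20 on the disomic and 7.85, 8.01 and 7.98 on the Ts1Cje arrays. The Ts1Cje values lay inside the disomic range, and M was -0.03 (95% confidence interval -0.48 to 0.42). These intervals leave room for changes of either sign. As fold changes they run from 0.60 to 1.89 for the brighter and from 0.58 to 1.62 for the dimmer Notch1 probe set, and from 0.72 to 1.34 for Notch2. The 4 expressed receptor probe sets had a median M of 0.03, which was 0.27 without Ts1Cje replicate 1, 0.19 without disomic replicate 3 and below 0 without disomic replicate 1 (-0.049), Ts1Cje replicate 2 (-0.022) or Ts1Cje replicate 3 (-0.053).

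For each of the 3 ligands, M was smaller in size than the standard deviation between the disomic cultures. Dll1, a Delta ligand made by activated stem cells and their progeny, gave 8.31, 8.72 and 9.25 on the disomic arrays. On the Ts1Cje arrays it gave 9.05, 9.05 and 9.07, a standard deviation of 0.0090, which is the smallest among the 12 expressed member probe sets. The Ts1Cje values lay within the range of the disomic ones, and M was 0.30 with a standard error of 0.26, a fold change of 1.23.

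Dll3, a Delta family protein that acts inside the cell and dampens Notch signalling there, gave 6.60, 7.55 and 8.16 on the disomic arrays, a span of 1.56, and 7.37, 7.72 and 6.97 on the Ts1Cje arrays. All Ts1Cje values fell between the lowest and the highest disomic ones. M was -0.09 with a standard error of 0.48. Jag1, the Jagged ligand of the niche, gave 6.42, 5.95 and 5.62 on the disomic arrays and 6.38, 5.02 and 6.08 on the Ts1Cje arrays. Ts1Cje replicate 2 was the lowest of the 6 and the genotypes overlapped, with an M of -0.17 and a standard error of 0.45. The 2 other probe sets of Jag1 stayed between 2.34 and 2.88 on every array. Over the 3 expressed ligand probe sets the median M was -0.09, but it was 0.27 without disomic replicate 3, the array with the highest Dll1 and Dll3. It was also above 0 without disomic replicate 1 (0.04), Ts1Cje replicate 2 (0.23) or Ts1Cje replicate 3 (0.10). With all arrays and a level of 6 for expressed it was 0.11.

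Lfng, the fringe enzyme, gave 6.34, 5.81 and 5.93 on the disomic and 6.35, 6.46 and 6.27 on the Ts1Cje arrays. Disomic replicate 1 lay at the level of the Ts1Cje arrays and the other disomic arrays below it. M was 0.34 with a standard error of 0.16, a fold change of 1.26 (95% confidence interval 0.93 to 1.71), and the moderated t was 2.08. Without disomic replicate 1 the moderated t was 6.28 and M 0.49, still with an adjusted p of 1.0 in limma, and without any other single array the moderated t lay between 1.44 and 1.91 (M = 0.23 without disomic replicate 2). The other probe set of Lfng read the lowest value of the arrays, 2.23, on all 6.

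Among the target genes, both Hes5 probe sets had a higher mean in Ts1Cje, with M = 1.20 and M = 0.54, and Hes1 and Hey1 both had M = -0.11. Hes5 encodes a repressor that depends closely on Notch activity in neural stem cells. Its dimmer probe set gave 7.71, 7.39 and 8.69 on the disomic and 8.91, 9.66 and 8.83 on the Ts1Cje arrays. The genotypes did not overlap, with 8.83 as the lowest Ts1Cje and 8.69 as the highest disomic value, and disomic replicate 3 stood apart from the other disomic arrays. The means were 7.93 ± 0.68 (SD, n = 3) and 9.13 ± 0.46 (SD, n = 3), so that M was 1.20, a fold change of 2.30 (95% confidence interval 0.99 to 5.37), with a moderated t of 2.65 and an unadjusted p of 0.0522 in limma. With array weights the unadjusted p in limma was 0.0291, and with a prior that follows intensity 0.0438. In a fit on expressed probe sets it was 0.016, with cyclic loess 0.0512 and with a replicate block 0.151. Only 19 of the 16371 expressed probe sets, this one included, had an M as large. Without disomic replicate 3 the moderated t was 4.62 and M 1.58, with an adjusted p of 1.0 in limma, and without any other single array the moderated t lay between 1.94 and 2.48, with M down to 0.93.

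The brighter probe set of Hes5 gave 11.06, 11.42 and 11.95 on the disomic and 11.99, 12.24 and 11.81 on the Ts1Cje arrays. Here the genotypes overlapped, since Ts1Cje replicate 3 was below disomic replicate 3. M was 0.54 with a standard error of 0.28, a fold change of 1.45 (95% confidence interval 0.87 to 2.43), and 2.45% of expressed probe sets had an M of this size or larger. This set is marked _x_at, which by the maker's naming means that some of its probes resemble other sequences. Both Hes5 probe sets read the same RNA of the same cultures and are not independent of each other.

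Hes1, a repressor that Notch and other signals control and whose level oscillates in neural progenitors, gave 7.26, 7.13 and 7.79 on the disomic and 7.05, 7.36 and 7.44 on the Ts1Cje arrays. The genotypes overlapped and M was -0.11 with a standard error of 0.23 (95% confidence interval -0.72 to 0.50). Hey1, a related repressor, gave 10.87, 10.76 and 10.79 on the disomic and 10.36, 10.99 and 10.73 on the Ts1Cje arrays. Its disomic arrays were close together, with a standard deviation of 0.06, and the Ts1Cje arrays spread on both sides of them. M was -0.11 with a standard error of 0.18 (95% confidence interval -0.59 to 0.37). The interval for Hey1 ends at a fold change of 1.29 and that for Hes1 at 1.41, and the interval of the dimmer Hes5 probe set reaches down to 0.99, so the intervals of the 3 targets overlap. Whether Hes5 differed from Hes1 and Hey1 in its change was not tested. The 4 target probe sets had a median M of 0.22, with 2 above and 2 below 0, and this median was 0.43 without disomic replicate 3, 0.13 without disomic replicate 1 and 0.14 without Ts1Cje replicate 2.

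The members also varied between cultures of the same genotype. Within the disomic group, replicate 1 was lowest on 6 of the 12 expressed member probe sets and replicate 3 highest on 8. The median deviation of the 12 from their own means was -0.34, -0.11 and 0.18 on the disomic arrays and -0.01, 0.22 and 0.13 on the Ts1Cje arrays. The same measure over all expressed probe sets stayed between -0.02 and 0.02 on the 6 arrays. The standard deviation between disomic arrays had a median of 0.36 over the members and 0.21 over all expressed probe sets, and between Ts1Cje arrays of 0.27 and 0.20.

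**Figure D3:**
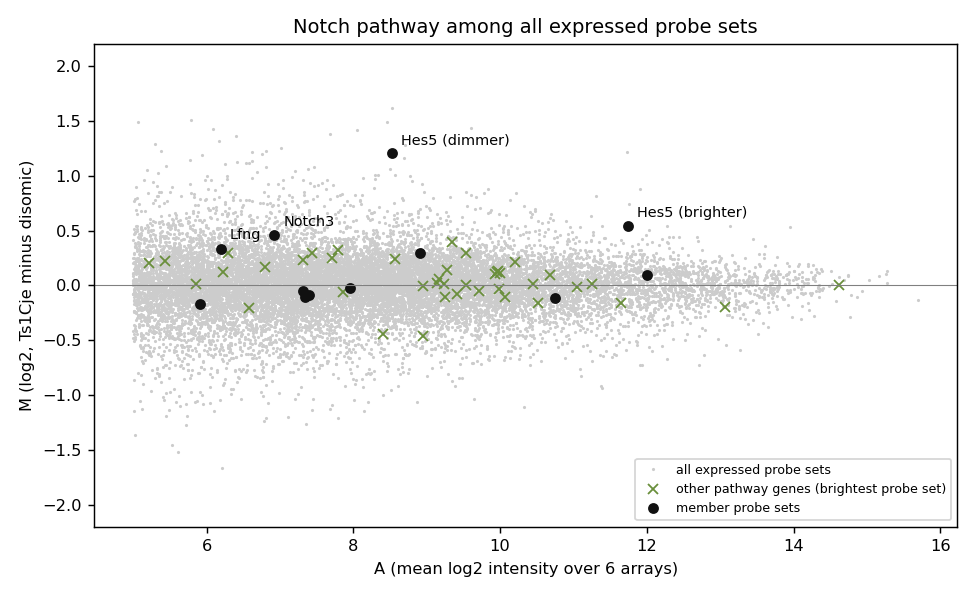
M (log2 intensity, Ts1Cje minus disomic) against A, the mean log2 intensity over the 6 arrays, for the 16371 expressed probe sets (grey), the 12 expressed member probe sets (black) and 41 other expressed pathway genes by their brightest probe set (green). The dimmer Hes5 probe set lies at the upper edge of the cloud with M = 1.20, and 4 of the expressed probe sets lie outside the plotted range of M.

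The rest of the pathway was described from lists of 67 other genes, each by its brightest probe set with a single symbol. Such a probe set was found for 61 of them, and 41 were expressed. None of the 41 had a moderated t past 4, where 1.82% of 8947 expressed genes did, and 1 had an unadjusted p under 0.05 in limma, against 6.61%. Their median M was 0.02, with 27 above and 14 below 0, beside a median of 0.01 and 51.6% above 0 for all expressed probe sets. Whether these shares differ was not tested. The Ts1Cje arrays were all above the disomic ones for 3 of the 41 genes, against 6.12% of expressed genes, and all below for 2, against 5.16%. None of the 67 genes lies in the trisomic segment. Some of them, such as Jag2 and Numb, are on chromosome 12, and their place relative to the breakpoint was not examined.

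Most other receptors and ligands were dim in both genotypes. Notch4 read 2.24 on every array, Dll4 lay between 2.71 and 2.99 and Jag2 between 2.28 and 2.41. Dner, a Notch-binding protein of the nervous system, was the only 1 of the 6 genes of this list that was expressed. It gave 13.03, 13.23 and 13.23 on the disomic and 13.01, 13.17 and 12.72 on the Ts1Cje arrays, with M = -0.20 and overlapping genotypes. Of the other enzymes that add sugars to Notch, Poglut1 had M = -0.11, Pofut1 M = -0.06 and Rfng M = 0.22, and Mfng was not expressed.

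The proteases that cut the receptors had a median M of 0.06 over 7 expressed genes. Those with the largest moderated t were Aph1b of the gamma-secretase complex, with M = 0.29, Psen2, a presenilin, with M = 0.30, and Ncstn, the nicastrin subunit, with M = 0.12. The genotypes overlapped on all of these.

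In the nuclear complex and its corepressors 13 genes were expressed, with a median M of 0.11. Rbpj itself gave 10.26, 10.87 and 10.66 on the disomic and 10.53, 10.63 and 10.15 on the Ts1Cje arrays. The genotypes overlapped, M was -0.16 with a standard error of 0.22, and its 2 other expressed probe sets also had an M below 0, down to -0.32. Tle1, a Groucho corepressor that Hes proteins recruit, gave 6.66, 6.69 and 6.80 on the disomic and 6.92, 6.89 and 6.84 on the Ts1Cje arrays. It had the largest moderated t of the 41 genes, 3.67, with no overlap and M = 0.17, a small difference on probes that varied little (adjusted p of 1.0 in limma). Hdac1, a histone deacetylase of corepressor complexes and of many others, gave 9.24, 8.97 and 9.33 on the disomic and 8.85, 8.42 and 8.90 on the Ts1Cje arrays, with no overlap, M = -0.46 and a moderated t of -2.57. Kat2b, an acetyltransferase and coactivator, had M = 0.21.

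Among the 11 expressed regulators of endocytosis and ubiquitination, the median M was 0.02. Numb, an inhibitor of Notch that is passed unequally to daughter cells, had M = 0.02 with a standard error of 0.11. The ubiquitin ligase Itch had M = 0.12. Dtx1, a Deltex protein and itself a Notch target, was higher on every Ts1Cje array with M = 0.32, and Neurl1b, a ligase that acts on Notch ligands, was lower on every one with M = -0.44. Their moderated t values were 2.04 and -2.03.

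The 6 expressed genes among the other targets had a median M of 0.05, with 4 above and 2 below 0. Nrarp, a target that feeds back on Notch, gave 8.97, 9.85 and 9.53 on the disomic and 9.70, 9.64 and 8.77 on the Ts1Cje arrays, with M = -0.08 and a standard error of 0.38. The highest and the lowest of the 6 values thus came from different genotypes, and the ranges overlapped widely. Hey2 stayed between 2.25 and 2.34 and Heyl between 2.23 and 2.26. Bhlhe40 had M = 0.40, with the 3 Ts1Cje arrays above the disomic ones, while Nes had M = 0.11 and Sox9 M = 0.09. Of the 6 proneural genes that Hes proteins repress, 5 had a probe set and 0 were expressed in either genotype.

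**Figure D4:**
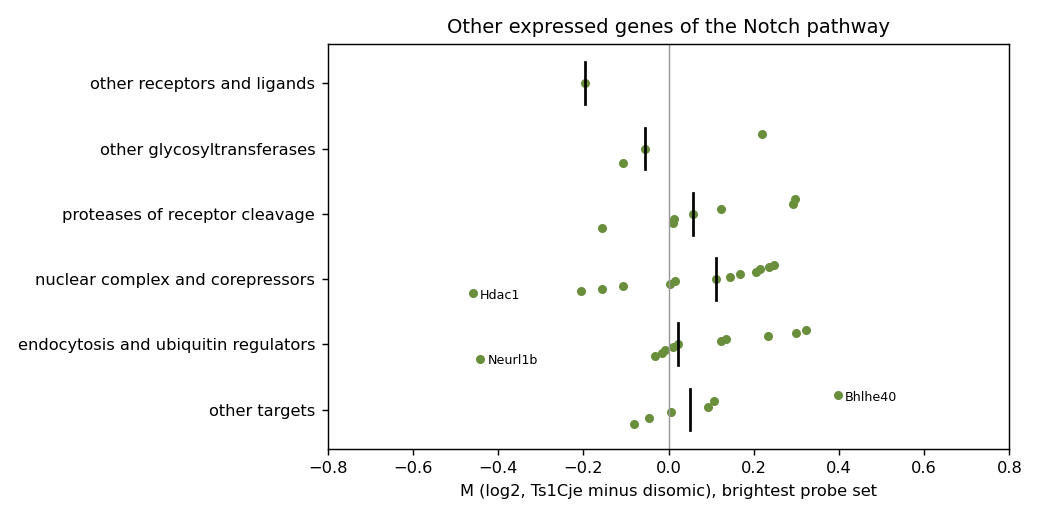
M (log2 intensity, Ts1Cje minus disomic) of the 41 other expressed pathway genes by list, with a point for each gene at its brightest probe set and a bar at the median of the list. The medians run from -0.20 for the list with 1 gene to 0.11 for the nuclear complex and corepressors, and Hdac1, Neurl1b and Bhlhe40 lie furthest from 0.

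Probe sets of other genes with the profile most like that of a member were sought by the largest difference, over the 6 arrays, between the deviations of both from their own means. For the brighter Hes5 probe set the nearest genes were Oip5os1, Prkca and Fndc3b, which stayed within 0.08, 0.12 and 0.14 of it on every array, and 24 of 14608 probe sets stayed within 0.25. For Notch3 they were Son, a gene of the trisomic segment, Trim12c and Lamtor1, within 0.10, 0.11 and 0.12. For Dll1 they were Cramp1l, Wipf2 and Braf, within 0.11, 0.11 and 0.12. The likeness covers 6 arrays of 2 genotypes, and 148 probe sets came within 0.25 of Notch3 and 121 of Dll1.

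Markers of neural stem cells were expressed in both genotypes, while the markers of some cell states differed beside Hes5 and Notch3. All 10 markers of neural stem cells and progenitors were expressed. Their mean log2 intensity ran from 5.22 for Pax6 to 14.62 for Fabp7, with Sox2 at 13.22. Their summed linear signal, which the brightest of them dominate, ran from 55982 to 68818 on the disomic and from 63002 to 65007 on the Ts1Cje arrays. Nr2e1, a nuclear receptor of adult neural stem cells, had the largest moderated t of these 10, 3.67, with M = 0.44 and no overlap between the genotypes (adjusted p of 1.0 in limma). Of the 8 astrocyte markers 5 were expressed, all with an M above 0, and the summed signal ran from 25419 to 29100 on the disomic and from 27521 to 34520 on the Ts1Cje arrays. The water channel Aqp4 had the largest difference of these, with M = 0.81 and a moderated t of 3.47. Gjb6 and S100b were not expressed, nor was Gfap on average, which ranged from 2.37 to 6.36 over the 6 arrays. The 4 expressed oligodendrocyte lineage markers of 6 found had a median M of -0.21, and the 3 expressed neuroblast and neuron markers of 9 a median of -0.07. The 1 expressed transit-amplifying marker of 3 found had M = -0.035. All 7 proliferation markers found had an M below 0, with a median of -0.66 and a summed signal from 16109 to 19815 on the disomic and from 11096 to 14803 on the Ts1Cje arrays, and 5 of them lay lower without overlap, which 5.16% of expressed genes did. Mcm7, a subunit of the replicative helicase, was the 1 of these past the threshold, which 1.82% of expressed genes passed, with a moderated t of -5.85. The part of these cell states in the Hes5 and Notch3 values was not tested.

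Apart from Acta2, markers of cells from vessels were at or near the lowest signal. None of 7 endothelial, 8 microglial and 5 ependymal markers was expressed. Of 5 mural cell markers, which bear on Notch3, only Acta2 was expressed, at a mean log2 intensity of 7.48. It gave 7.61, 8.03 and 7.33 on the disomic and 8.97, 6.47 and 6.46 on the Ts1Cje arrays, with M = -0.35. Pdgfrb lay at 2.24, Des and Anpep at 2.23 and Rgs5 at 2.68. Summed over the list, the mural signal was 181 to 282 on the disomic and 109 to 523 on the Ts1Cje arrays. Acta2 was the brightest of the 5 on every array. The control probe sets for RNA quality also differed with the genotype. On disomic arrays the 3′ minus 5′ difference was 1.67 ± 0.15 for actin and 2.18 ± 0.10 for Gapdh, and the 18S signal was 11.10 ± 0.78 (SD, n = 3 each). For Ts1Cje these were 2.02 ± 0.21, 2.34 ± 0.09 and 12.22 ± 0.22 in the same order (SD, n = 3 each). The genotypes did not overlap on any of the 3, Ts1Cje being higher, and their part in the values of the members was not tested.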

How the data were processed

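The authors hybridised RNA from 6 cultures, after 2 cycles of labelling, to Affymetrix whole-genome mouse arrays and deposited log2 intensities per probe set, made with gcRMA, which corrects background from probe sequence, normalizes the arrays to each other and then summarises each probe set (version not given in the sources used here). These steps cannot be repeated from the deposited values, and the number of arrays rather than read depth limits the precision. Scanner files were not used here. A value of 2.23 is the lowest on the arrays, and 29.75% of probe sets do not vary over the 6 arrays.

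Gene names came from the platform annotation, for the 34945 of 45037 probe sets with 1 symbol, and control probe sets were kept out of the fit. The genotypes were compared over all probe sets with limma 3.58.1 in R 4.3.3, without covariates, with two-sided p-values adjusted by the method of Benjamini and Hochberg over all of them. The prior degrees of freedom were 0.336. They were 2.814 in a fit on expressed probe sets, where the adjusted p of the expressed members ran from 0.76 to 0.99 in limma. Tables used pandas 2.3.3 (Python 3.11.15), and matplotlib 3.10.9 drew the figures. The fit was tested on simulated data. With 3 against 3 arrays an exact permutation test cannot give a p below 0.1, so none was run.

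The members and lists were chosen with earlier results of these data known. Named were all members, Rbpj, Notch4, Dll4, Jag2, Hey2, Heyl, Nrarp and Numb, up to 3 expressed genes per list by size of moderated t, any gene past 4, and the 3 nearest profiles for the leading receptor, ligand and target. Of the lists, 6 pathway genes and 3 markers had no probe set with a single symbol here and are not reported. Alternatives were a replicate block, each array left out, cyclic loess, array weights, a prior that follows intensity, a fit on expressed probe sets, other levels for expressed and the mean over the probe sets of a gene.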

Additional observations from a re-analysis of the deposited data

How the results depend on the processing

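The count of members with an adjusted p under 0.05 in limma was 0 under each alternative run, which says nothing about stability, since only 1 of all 45037 probe sets passed that threshold. No member passed a moderated t of 4 except that leaving out single arrays gave 0 to 1 (Lfng without disomic replicate 1, the dimmer Hes5 probe set without disomic replicate 3). Leaving out 1 array moved the count of member probe sets with no overlap to between 2 and 4, the median M of the ligands to between -0.094 and 0.27, of the receptors to between -0.053 and 0.27 and of the targets to between 0.13 and 0.43, and the count of other pathway genes past a moderated t of 4 to between 0 and 1. That count was 2 with a replicate block (Hdac1 with a moderated t of -10.38 and Maml1 with 4.49), and 1 (Tle1) with cyclic loess and with array weights. The sources used here do not say that the replicate numbers mark the littermate pairs. Across the genotypes, arrays with the same number correlated in their deviations at -0.17, -0.03 and 0.13. Arrays with different numbers did so at -0.365 to 0.395. With 3 arrays per genotype, these values cannot decide the pairing. With the block no member passed a moderated t of 4. The unadjusted p of Notch3 was then 0.0615 in limma, which left 0 of 12 members under 0.05 in place of 1. The dimmer Hes5 probe set fell below 0.05 in limma with array weights, a prior that follows intensity and a fit on expressed probe sets. The sign of M turned when single arrays were left out for Notch1 (-0.072 to 0.33), Notch2 (-0.19 to 0.086), Jag1 (-0.45 to 0.23), Dll3 (-0.50 to 0.27), Hes1 (-0.24 to 0.089) and Hey1 (-0.26 to 0.056). It stayed above 0 for Hes5 (0.33 to 0.78 for the brighter and 0.93 to 1.58 for the dimmer probe set), Notch3 (0.36 to 0.57), Lfng (0.23 to 0.49) and Dll1 (0.07 to 0.54). Of 87 values recomputed with all 6 arrays, 84 were the same within the limits set for each, and the 3 pathway counts above moved. The cause of these moves was not tested. Part of the agreement was fixed in advance. M cannot change with a replicate block, a prior that follows intensity or a fit on expressed probe sets. The limits were also wide, since the median M of the ligands counted as the same at -0.09 and, for a mean log2 intensity above 6, at 0.11. For probe sets near the lowest signal of the arrays, a difference could not be seen.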
